A study of Mus musculus with 4 samples.

Results

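Gene expression in Ly6C-hi macrophages was compared with that in Ly6C-low macrophages sorted from the livers of wild-type (WT) mice, 48 h after reperfusion, the return of blood to an ischaemic organ. The difference of a gene was its log2 RMA value in the WT Ly6C-hi array minus that in the WT Ly6C-low array. Genes were included by level alone, at a log2 value of at least 6 in the brighter of these 2 arrays, which kept 4762 of 22180 genes. Mief1 lay just inside this floor at 6.0001 and Hagh just outside it at 5.9993. All mice were of strain C57/BL6. The series holds 4 arrays, 1 for each combination of genotype (wild type, or a knockout (KO) of Ptges, whose product mPGES-1 is a terminal synthase of prostaglandin E2) and Ly6C fraction. The mPGES-1-/- mice numbered 10, as did the WT mice, and the sources used here do not give the number of mice behind an array, the kind of liver injury or the sort gates. With 1 array a side no difference has a replicate check or a p-value, and the values below describe these 2 arrays. In sorted bulk RNA, fewer cells of a type and less RNA per cell cannot be told apart.

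Ly6C is a surface protein abundant on inflammatory monocytes, which leave the blood, enter injured tissue and become macrophages there. In injured liver such cells release cytokines that draw in neutrophils, and as they mature they lose Ly6C, clear debris and take part in repair. The liver also holds Kupffer cells, the resident macrophages of the sinusoids, which lie against a fenestrated scavenging endothelium. Prostaglandin E2 is made from arachidonic acid by the cyclooxygenases and a terminal synthase, acts through a family of receptors, and is taken up and oxidised by a transporter and a dehydrogenase.

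Levels are given as log2 values, Ly6C-hi first. A gene is called level where it differed less than 2-fold. General macrophage markers were present in both arrays. Csf1r, the receptor of macrophage colony-stimulating factor, read 8.59 and 8.46, the lysosomal protein gene Cd68 10.01 and 10.20, Adgre1, an adhesion receptor of mature macrophages, 8.30 and 8.53, and the lysozyme gene Lyz2 9.36 and 9.30. Of 7 macrophage markers, 6 differed less than 2-fold, and the integrin gene Itgam (9.43 and 8.13) was higher in Ly6C-hi. Ly6c2, a gene of the Ly6C antigen, read 7.70 and 3.84, and Ly6c1 lay below the floor in both arrays at 3.26 and 2.45. These genes are close copies, and their probe sets may share signal. Ptges read 5.65 and 5.69 in the WT arrays, below the floor, and 6.32 and 6.20 in the arrays labelled KO, so it was not lower under that label. Whether the probe set covers the deleted stretch is not known here, so the values do not check the genotype label, and each comparison with the KO-labelled arrays rests on that label. Chemosensory receptor genes, which are mostly silent outside sensory tissue, gave a guide to background that was chosen after values were seen. Their 97.5th percentile was 5.32 in Ly6C-hi against 5.97 in Ly6C-low, and a difference whose dimmer value lies below that is uncertain in size.

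Both arrays also carried transcripts that mark other cells, and these differed between the fractions by more than the macrophage genes did. All 15 neutrophil markers used, of 20 in the list, were at least 2-fold brighter on the Ly6C-hi side, by a median of 3.31 and a summed level of 13.64 against 10.09. The calprotectin gene S100a8 read 10.995 and 7.71, and the neutrophil surface gene Ly6g 6.45 and 4.31, while the granule genes Camp (5.67 and 2.97) and Ltf (5.76 and 4.65) stayed under the floor. Of 16 sinusoidal endothelial markers used, 15 passed 2-fold towards Ly6C-low, with a median of -2.92 and a summed level of 10.16 against 12.73. Of 12 hepatocyte markers, 5 were higher in Ly6C-low and 1 in Ly6C-hi, and their summed level was 11.96 against 12.60. None of the T cell or cholangiocyte markers with a probe set reached the floor. The part of these other transcripts in the gene groups below was not tested.

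**Figure D1:**
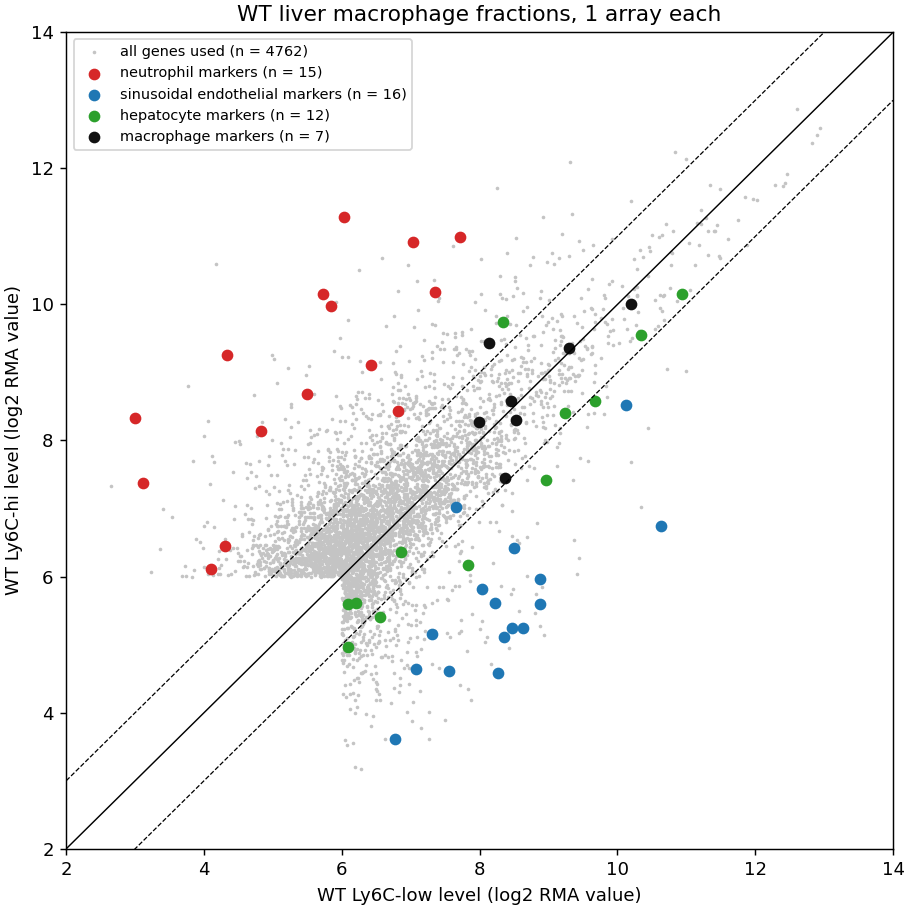
Log2 level in the WT Ly6C-low array (x axis) against the WT Ly6C-hi array (y axis) for each of the 4762 genes, 1 point per gene. The solid line marks equal levels and the dashed lines a 2-fold difference, and colours mark 4 cell type lists. Of the 7 macrophage markers, 6 lie between the dashed lines, all 15 neutrophil markers lie above it, and 15 of 16 sinusoidal endothelial markers lie below the lower dashed line.

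More genes were higher in Ly6C-hi than the reverse. A difference of 2-fold or more towards Ly6C-hi was found for 966 genes, 20.3% of those used, and towards Ly6C-low for 313 genes, 6.57%. The median gene was itself 0.30 higher in Ly6C-hi, and relative to that median the counts were 645 (13.5%) and 494 (10.4%). Below, counts are as deposited, and the count relative to the median gene is called centred. At 4-fold, 203 genes lay on the Ly6C-hi side and 100 on the Ly6C-low side, and at 8-fold 57 and 30. The dimmer array also reached the floor for 70 of those 203 genes and for 13 of those 100, so the size of most large differences rests on a value near background.

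The largest difference was that of Il1f9, which encodes the interleukin-1 family cytokine IL-36 gamma, at 86.0-fold. It was followed by the stefin gene Stfa2l1 at 40.4-fold, the decoy receptor Il1r2 at 38.1-fold, Il23a, a subunit of interleukin-23, at 32.9-fold, and the neutrophil chemokine receptor Cxcr2 at 30.4-fold. Slfn4, an interferon- and Toll-inducible Schlafen gene of myeloid cells, read 8.29 and 4.06. G0s2, an inhibitor of triglyceride lipase, read 9.97 and 5.84, and Slc7a11, the cystine importer that feeds glutathione synthesis, 10.04 and 5.91. For these 2 genes the other probe set gave differences of only 1.01 (G0s2) and 1.50 (Slc7a11). Acod1, the enzyme that makes itaconate in activated macrophages, read 10.68 and 6.58, above the background guide in both arrays. The bitter taste receptor gene Tas2r143 read 8.06 and 3.999. Its neighbour Tas2r135 gave 6.99 and 3.40, and in gene order the pair followed Zyx, which was 1.49 higher in Ly6C-hi.

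On the Ly6C-low side the largest differences belonged to genes known from endothelium. After the lectin gene Clec4g (14.7-fold) came the lipid phosphatase gene Plpp1 (13.9-fold) and the tight junction gene Cldn5 (12.9-fold). The hyaluronan scavenger receptor Stab2 read 5.24 and 8.64, and Igfbp7, a secreted binding protein of vessels, 6.03 and 9.41. Plpp3 read 5.47 and 8.80, and the membrane recycling gene Ehd3 7.03 and 10.35. Only 1 of the first 15 is a Kupffer cell gene, the complement receptor gene Vsig4, at 3.78 and 7.15.

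**Figure D2:**
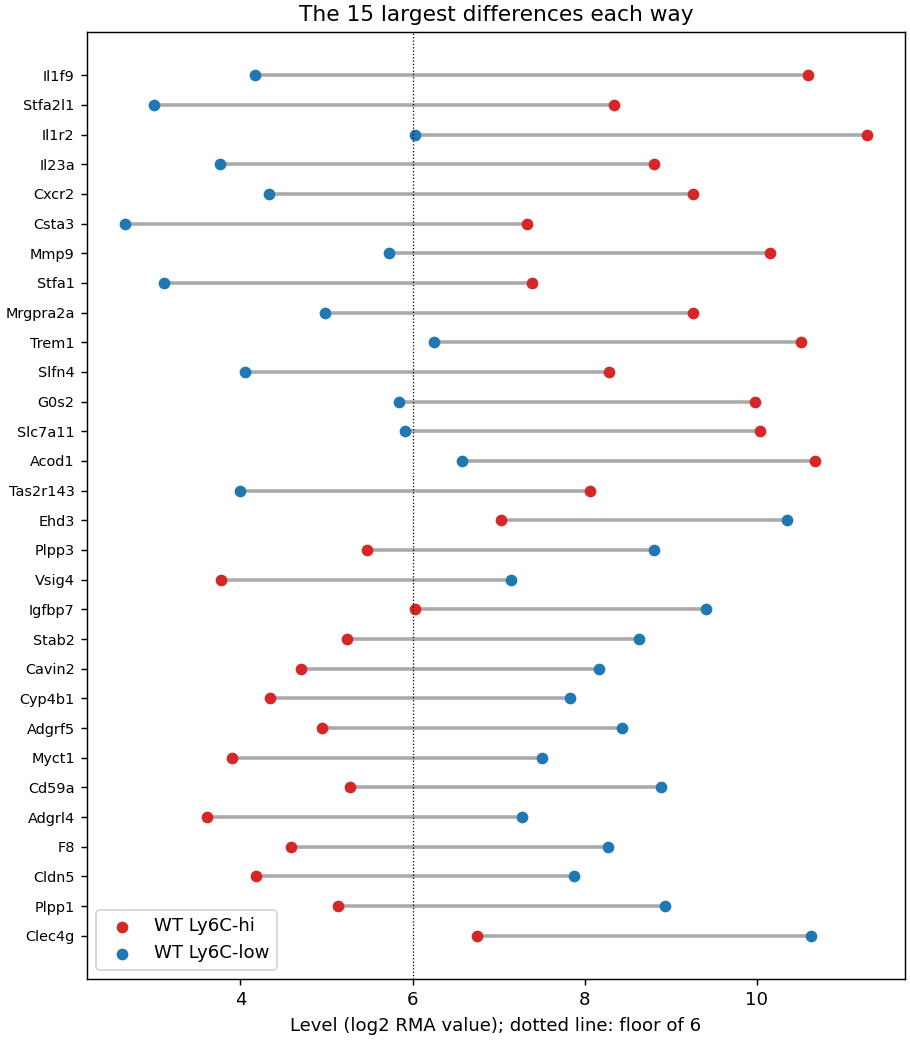
Log2 level of the 15 genes with the largest difference in each direction, in the WT Ly6C-hi array (red) and the WT Ly6C-low array (blue), 1 array each. The dotted line is the floor of 6. For most of the 30 genes the dimmer array lies below the floor, and Trem1, Acod1, Ehd3 and Clec4g are among those above it in both.

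Genes of recruited monocytes were higher in Ly6C-hi or differed little. Of 14 used, 8 passed 2-fold towards Ly6C-hi (6 centred), none the other way, and the median was 1.23. Those 8 include Ly6c2, a gene of the antigen used for sorting. They also include the glutathione reductase gene Gsr, which is not a marker of monocytes. The lectin receptor gene Clec4e, which senses dead cells and mycobacterial glycolipid, read 11.72 and 8.25, and its neighbour Clec4d 10.36 and 7.34. Chil3, which encodes Ym1, read 7.49 and 5.07, and Plac8 8.61 and 7.45. The chemokine receptor Ccr2, which brings these monocytes out of the marrow, differed less, at 8.28 and 7.48, and fibronectin (Fn1) read 9.80 and 9.76. Ms4a4c, F13a1, Ms4a6b and Ms4a6c also differed less than 2-fold, and Vcan lay below the floor. Neutrophil markers were higher in the same array, and their part in this list was not tested. The list for Ly6C-low patrolling monocytes did not follow the fraction. Its orphan receptor gene Nr4a1 read 10.03 and 7.94 and its integrin gene Itgal 7.70 and 6.25, both higher in Ly6C-hi, the fractalkine receptor Cx3cr1 read 7.71 and 7.58, and Cd36 (8.64 and 9.85) and Fabp4 (8.18 and 10.44) were higher in Ly6C-low. The last 2 genes are also expressed by endothelium.

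The interleukin-1 family was higher in Ly6C-hi from ligands to the decoy receptor Il1r2, which is also on the neutrophil list. Of 15 genes used, 10 passed 2-fold towards it (9 centred), none the other way, and the median was 1.84. The ligand gene Il1b read 12.10 and 9.31 and Il1a 9.70 and 8.53. Il1rn, the natural antagonist of the receptor, read 9.15 and 6.55, so agonists and antagonist lay on the same side. The coreceptor genes Il1rap (7.33 and 4.79) and Il18rap (7.77 and 4.11) were also higher, whereas the signalling receptor gene Il1r1 (3.57 and 4.76) lay below the floor. Among inflammasome genes the sensors Nlrp3 (10.34 and 7.09) and Aim2 (7.84 and 6.002) and the caspase gene Casp4 (7.57 and 5.85) were higher in Ly6C-hi. The adaptor Pycard (7.73 and 7.86), Casp1 (6.70 and 7.28) and the pore protein gene Gsdmd (6.62 and 6.14) differed less than 2-fold.

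Cytokine and receptor genes of the TNF, IL-6 and IL-12 families were mostly higher in Ly6C-hi. Of 11 used, 7 passed 2-fold towards Ly6C-hi and 2 towards Ly6C-low. Tnf read 9.57 and 7.47, its receptor gene Tnfrsf1b 8.62 and 6.98, and the oncostatin M gene Osm 7.48 and 5.78. The interleukin-6 receptor Il6ra read 8.58 and 6.75. The shared signalling chain Il6st (7.68 and 10.20) and the leukaemia inhibitory factor receptor Lifr (5.08 and 7.19) were higher in Ly6C-low, so the parts of 1 receptor complex differed in opposite directions. Il6 and Il10 themselves lay below the floor.

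Colony-stimulating factor genes were mostly higher in Ly6C-hi, in 5 of 7. Csf1, the ligand that keeps macrophages alive, read 9.51 and 5.97, while its receptor Csf1r, given above, was level. The granulocyte factor receptor Csf3r, also on the neutrophil list, read 10.91 and 7.04, and the chains of the granulocyte-macrophage factor receptor, Csf2ra (7.26 and 5.73) and Csf2rb (7.69 and 6.35), were higher too. The stem cell factor receptor Kit (5.11 and 7.09) was the gene higher in Ly6C-low.

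The chemokine genes Cxcl2 and Cxcl3, whose products call neutrophils, and their receptor gene Cxcr2 led the Ly6C-hi side of the CXC list. Of 10 CXC genes used, 4 passed 2-fold towards Ly6C-hi and 2 towards Ly6C-low. Cxcl3 read 10.20 and 6.81 and Cxcl2 10.58 and 8.73, and their receptor Cxcr2 read 9.25 and 4.33. Of other chemokine genes of the list, Cxcl1 and Ppbp differed less than 2-fold and Cxcl5 lay below the floor. Cxcr4, the receptor that retains cells in marrow, read 10.60 and 9.08. The platelet chemokine Pf4 (8.80 and 9.84) and the scavenger ligand Cxcl16 (7.59 and 8.60) were higher in Ly6C-low. The 13 CC chemokine genes were close to the whole table. Of these, 3 were higher in Ly6C-hi, against 20.3% of all genes, and 1, Ackr2, in Ly6C-low. Their median of 0.38 lay near that of all genes. The 3 were Ccl3 (10.34 and 8.51), the receptor Ccr1 (8.29 and 5.97) and the chemerin-binding receptor Ccrl2 (11.28 and 8.92). The monocyte attractants Ccl2 (7.96 and 7.51) and Ccl7 (6.41 and 6.22) differed less than 2-fold.

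Sensors of microbes and damage were higher in Ly6C-hi, in 12 of 20 genes (10 centred) with 1 higher in Ly6C-low. The formyl peptide receptor Fpr2 read 9.32 and 5.88, the amplifier Trem3 9.22 and 6.01, and the lipopolysaccharide coreceptor Cd14 10.15 and 8.02. Of the Toll-like receptors of the cell surface, Tlr6 (8.15 and 5.54), Tlr2 (7.97 and 6.28), Tlr4 (6.77 and 5.38) and Tlr5 (7.07 and 5.70) were on this side, and Tlr1 (7.14 and 7.25) was level. Of the endosomal receptors, Tlr13 (8.95 and 7.16) was higher, Tlr7 (6.77 and 6.57) and Tlr8 (6.87 and 6.81) were level, and Tlr3 (4.58 and 6.28) was the gene higher in Ly6C-low. Of 16 C-type lectins, 5 passed 2-fold towards Ly6C-hi and 6 towards Ly6C-low. Clec5a (9.07 and 5.21), Clec4n, which encodes Dectin-2 (9.83 and 6.75), and Clec7a, which encodes Dectin-1 (10.93 and 9.43), lay on the first side. The mannose receptor Mrc1 (6.42 and 8.50), Clec1b (6.58 and 8.69) and Clec14a (4.16 and 7.03) lay on the second, and all 3 are expressed by endothelium or resident cells. Activating Fc gamma receptors differed less than 2-fold, and the inhibitory receptor Fcgr2b (8.52 and 10.12), which is also on the sinusoidal endothelial list, was higher in Ly6C-low.

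**Figure D3:**
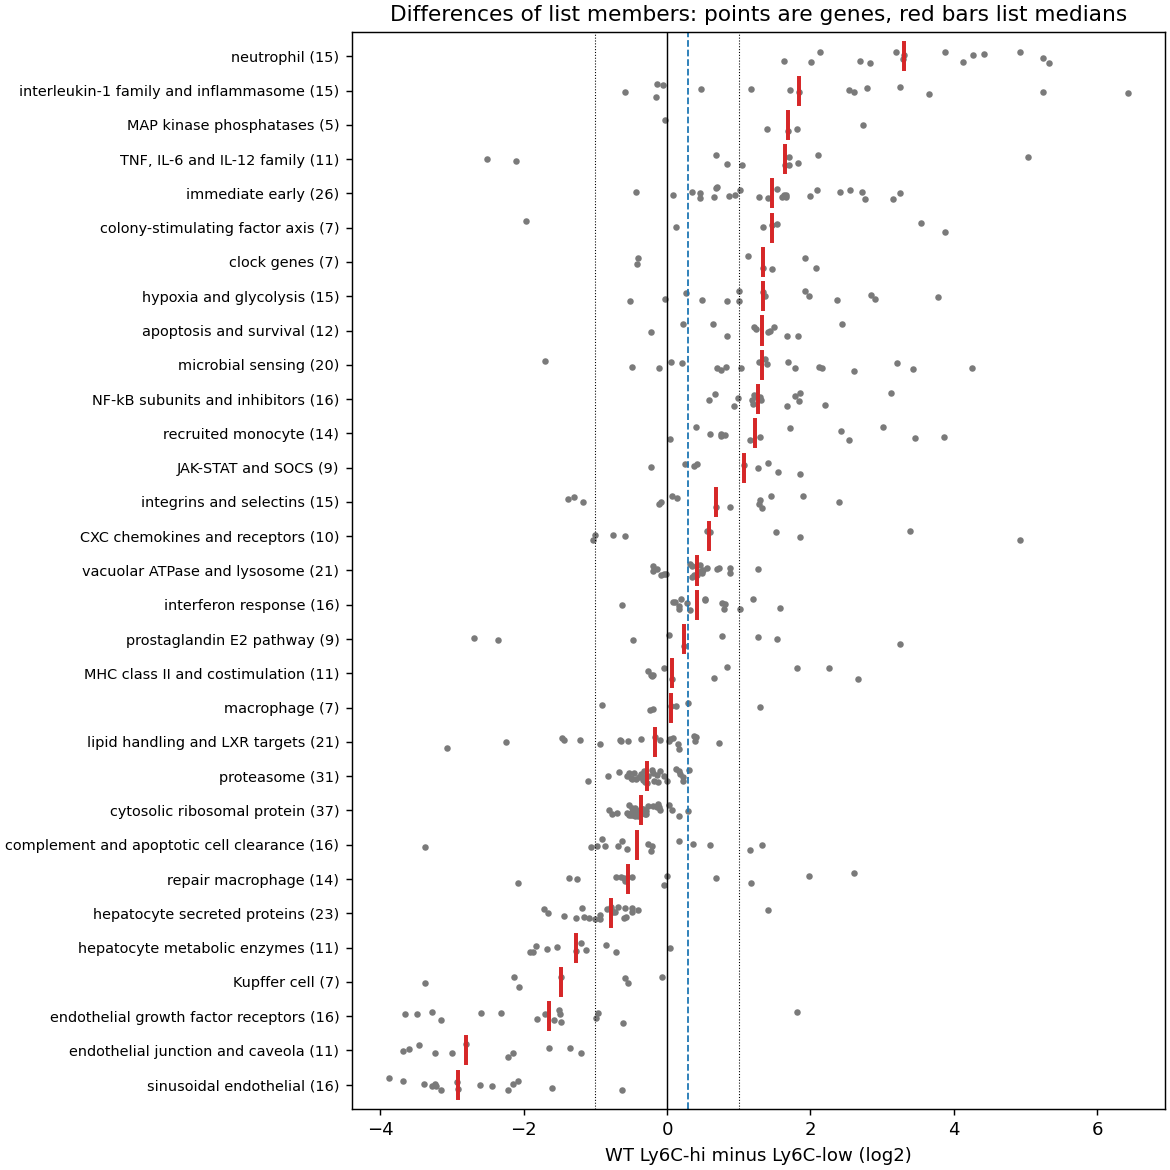
WT Ly6C-hi minus Ly6C-low difference (log2, x axis) for the members of 31 gene lists (y axis, with the number of genes used), ordered by median. Each grey point is a gene, red bars are list medians, the solid line is 0, the dashed blue line is the median of all 4762 genes at 0.30 and the dotted lines mark 2-fold. Neutrophil genes lie at the top with a median of 3.31 and sinusoidal endothelial genes at the bottom with -2.92.

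Genes of the NF-kB pathway, the transcription factor family that drives inflammatory genes and its own inhibitors, read higher in Ly6C-hi. All 16 used had positive differences, 12 passed 2-fold (7 centred), and the median was 1.27. The 3 largest differences were those of inhibitor genes. Nfkbie read 7.54 and 4.41, Nfkbiz 9.17 and 6.97, Nfkbia 11.04 and 9.19, and the ubiquitin-editing gene Tnfaip3 10.10 and 8.32. The subunit genes Nfkb2 (7.35 and 5.51), Rel (10.20 and 8.89) and Rela (7.20 and 5.99) followed. The kinase subunit gene Ikbkb (7.05 and 6.47) differed less than 2-fold.

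Promoters of 3 genes of the list, and of the chemokine genes Cxcl2 and Cxcl3, are shown because NF-kB is known to act on several of them and because they hold the kappaB letters in the bases shown. In RefSeq sequence (GRCm38.p6), a table of 32851 windows from 250 bases before to 50 after a gene start held a promoter for 3792 of the 4762 genes. Both strands were searched for the kappaB consensus, the core ACGTG given below, and letters known as CRE, CArG box, GATA and ETS core. The kappaB consensus was found in 8.46% of all windows and in 14.4% of those of genes higher in Ly6C-hi. The share was 8.24% for genes higher in Ly6C-low and 9.88% for genes that differed less than 2-fold. Counted by gene, the kappaB letters were found in 12.4% of the genes used and 17.1% of those higher in Ly6C-hi. They were found in 8 of the 13 list genes with a window. By gene, the ETS core was found in 4.76% of those higher in Ly6C-hi, 0.881% in Ly6C-low and 11.3% under 2-fold. These shares were 7.85%, 14.1% and 7.39% for GATA and 3.6%, 0.441% and 3.98% for CRE. For the CArG box they were 1.93%, 1.76% and 1.79%. Csf1 and a further start of Tnfaip3 were also read and had no match in their 150 bases. The 150 bases before the start of 5 genes follow, 5′ to 3′ on the gene's strand, with matches in capitals. They are Nfkbie at chr17:45555550-45555699 (plus strand), Nfkbia at chr12:55492648-55492797 (minus), Tnfaip3 at chr10:19015411-19015560 (minus), Cxcl2 at chr5:90903749-90903898 (plus) and Cxcl3 at chr5:90785951-90786100 (plus).
Nfkbie: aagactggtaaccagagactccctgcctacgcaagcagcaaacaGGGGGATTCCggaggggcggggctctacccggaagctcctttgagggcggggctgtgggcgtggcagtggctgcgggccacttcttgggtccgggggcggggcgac
Nfkbia: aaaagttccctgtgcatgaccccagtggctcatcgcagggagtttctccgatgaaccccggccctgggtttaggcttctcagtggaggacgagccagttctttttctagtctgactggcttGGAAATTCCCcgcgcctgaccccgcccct
Tnfaip3: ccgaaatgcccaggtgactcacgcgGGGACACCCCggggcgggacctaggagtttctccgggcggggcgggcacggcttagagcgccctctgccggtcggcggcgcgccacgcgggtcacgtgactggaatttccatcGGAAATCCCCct
Cxcl2: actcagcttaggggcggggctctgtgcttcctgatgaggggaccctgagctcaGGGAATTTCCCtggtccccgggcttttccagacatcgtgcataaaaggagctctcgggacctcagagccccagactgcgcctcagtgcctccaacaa
Cxcl3: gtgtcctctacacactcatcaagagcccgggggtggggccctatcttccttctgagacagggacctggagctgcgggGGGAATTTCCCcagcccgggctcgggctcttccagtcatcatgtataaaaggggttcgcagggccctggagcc
The capitals of Cxcl2 and Cxcl3 are the same letters and cover overlapping matches on both strands. A match is a description of the letters, and binding was not measured.

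Several genes of other signalling pathways lay on the same side. Of 5 MAP kinase phosphatases, 4 passed 2-fold towards Ly6C-hi, with Dusp16 at 7.88 and 5.15, Dusp5 at 8.56 and 6.76, Dusp2 at 7.66 and 5.98 and Dusp1 at 12.23 and 10.84. Dusp6, a phosphatase induced by ERK, was level at 9.14 and 9.17. Of 9 JAK-STAT genes 5 were higher in Ly6C-hi (3 centred), among them Jak2 (8.21 and 6.67), Stat3 (9.19 and 7.93) and the kinase gene Pim1 (7.56 and 5.71). Jak1 read 9.08 and 9.30, and the list's feedback genes, Cish and the SOCS genes, lay below the floor.

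Immediate early genes, which respond to stimulation within minutes without new protein, were higher in Ly6C-hi in 16 of 26 (14 centred) and lower by 2-fold in none, with a median of 1.47. Plk3 read 9.23 and 6.09, Egr3 6.75 and 3.99, Nr4a3 7.64 and 4.92 and the AP-1 gene Fosl2 9.39 and 6.84. Egr1 (8.54 and 6.91), Btg2 (9.44 and 7.45), Ier2 (6.74 and 5.08), Ier3 (6.66 and 5.06) and Junb (10.17 and 8.63) also passed 2-fold. Other members were level. Fos read 7.87 and 7.17, Fosb 9.86 and 9.18, Jun 9.54 and 9.20, and Atf3 9.03 and 8.38. These genes can be induced while cells are isolated, and the part of isolation in their levels was not tested. Clock genes that are also induced by signals were higher too, in 5 of 7, with Per1 at 9.24 and 7.17 and Cry1 at 6.46 and 5.00. The core activators Arntl (5.65 and 6.05) and Clock (6.94 and 7.36) were not.

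Hypoxia and glycolysis genes were higher in Ly6C-hi in 8 of 15, also when centred, and none was 2-fold lower. The glucose transporters Slc2a3 (8.85 and 5.06) and Slc2a1 (9.34 and 7.42) and the lactate exporter Slc16a3 (8.27 and 5.37) were among them. Egln3, a prolyl hydroxylase that marks the factor HIF for decay, read 7.96 and 5.12, the oxidase gene Ero1a 8.15 and 5.78, and Vegfa 9.30 and 7.31. Several glycolytic enzymes were level, with Gapdh at 10.25 and 10.28, Pgk1 at 7.32 and 7.06 and Pgam1 at 8.49 and 8.003. Hif1a itself read 8.26 and 7.27.

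Promoters of 3 of these genes are printed because HIF is known to act through the core ACGTG and because they hold it in the bases shown. Egln3 was also read and had no match in its 150 bases before the start. The core, searched on both strands, lies within 19.6% of all windows and 26.7% of those of the genes used. It also lies within the E-box letters CACGTG, which other factors bind. Of the 13 hypoxia genes with a window, 12 held it, against 30.5% of the genes used when counted by gene. Their windows had a mean GC content of 63.96% against 53.8% for all windows, and the part of base composition in the share was not tested. By gene, 31.7% of those higher in Ly6C-hi held the core, 20.3% of those higher in Ly6C-low and 31% of those that differed less than 2-fold. The windows of genes higher in Ly6C-low had a mean GC content of 54.98%, against 60.26% for those higher in Ly6C-hi. The 150 bases before the start are those of Slc16a3 at chr11:120948917-120949066 (plus), Slc2a1 at chr4:119108595-119108744 (plus) and Ero1a at chr14:45318573-45318722 (minus), with the core in capitals as read on either strand.
Slc16a3: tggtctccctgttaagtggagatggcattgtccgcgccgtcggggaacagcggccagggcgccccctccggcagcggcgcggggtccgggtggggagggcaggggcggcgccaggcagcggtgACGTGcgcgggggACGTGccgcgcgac
Slc2a1: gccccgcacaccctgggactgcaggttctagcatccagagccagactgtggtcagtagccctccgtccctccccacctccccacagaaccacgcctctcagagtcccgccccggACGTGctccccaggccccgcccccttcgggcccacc
Ero1a: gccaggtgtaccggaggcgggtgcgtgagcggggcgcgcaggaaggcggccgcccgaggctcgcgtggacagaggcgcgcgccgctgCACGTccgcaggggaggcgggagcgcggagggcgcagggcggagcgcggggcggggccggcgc

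Of 7 arginine and itaconate genes, 3 passed 2-fold towards Ly6C-hi and 1 towards Ly6C-low. Besides Acod1, the mitochondrial arginase gene Arg2 (8.28 and 4.85) and Gch1, which makes the cofactor of nitric oxide synthases (6.80 and 5.44), were higher in Ly6C-hi. Ddah2, which degrades methylated arginines, read 5.85 and 7.23 and was higher in Ly6C-low. Arg1, the cytosolic arginase of repair macrophages and of hepatocytes, was level at 9.50 and 10.21. Nos2 lay below the floor at 5.13 and 4.19. Of 13 glutathione and redox genes, 4 were higher in Ly6C-hi (2 centred) and 1 in Ly6C-low, and the median of 0.26 lay near that of all genes. Those higher in Ly6C-hi included the glutathione reductase gene Gsr (9.32 and 6.78). The regulator Nfe2l2 (7.64 and 6.48) and Txnrd1 (7.94 and 6.85) passed 2-fold only as deposited. Oxidase subunits of the phagocyte burst were unequal. Ncf1 (7.68 and 5.58) and Ncf4 (8.39 and 6.56), which encode cytosolic subunits, were higher in Ly6C-hi, and Cybb (9.32 and 9.35) and Cyba (10.52 and 10.29), which encode the membrane pair, were level.

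Genes of prostaglandin E2 differed at the cyclooxygenase step and at removal. Of 19 with a probe set, 9 reached the floor, 3 of them past 2-fold towards Ly6C-hi (2 centred) and 2 towards Ly6C-low. Their median of 0.23 lay near that of all genes. Those 3 include Pla2g7, the platelet-activating factor hydrolase gene given below. Ptgs2, which encodes the inducible cyclooxygenase, read 10.85 and 7.61, a 9.48-fold difference. Pla2g4a, the phospholipase that releases arachidonic acid, was level at 7.11 and 6.88. The terminal synthases Ptges, given above, Ptges2 (4.51 and 4.64) and Ptges3 (3.34 and 3.73) lay below the floor in both arrays. Of the receptors, Ptger2 (6.33 and 5.06) was higher in Ly6C-hi, Ptger4 read 6.20 and 5.43, and Ptger3 lay below the floor. Removal genes went the other way. The uptake transporter Slco2a1 read 5.17 and 7.53, and Hpgd, the dehydrogenase that inactivates prostaglandins, 5.34 and 8.04. Thus the cyclooxygenase gene Ptgs2, but no terminal synthase gene, was higher in Ly6C-hi. The dehydrogenase gene Hpgd was higher in Ly6C-low, where endothelial markers were also higher. The part of those cells in the removal genes was not tested.

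**Figure D4:**
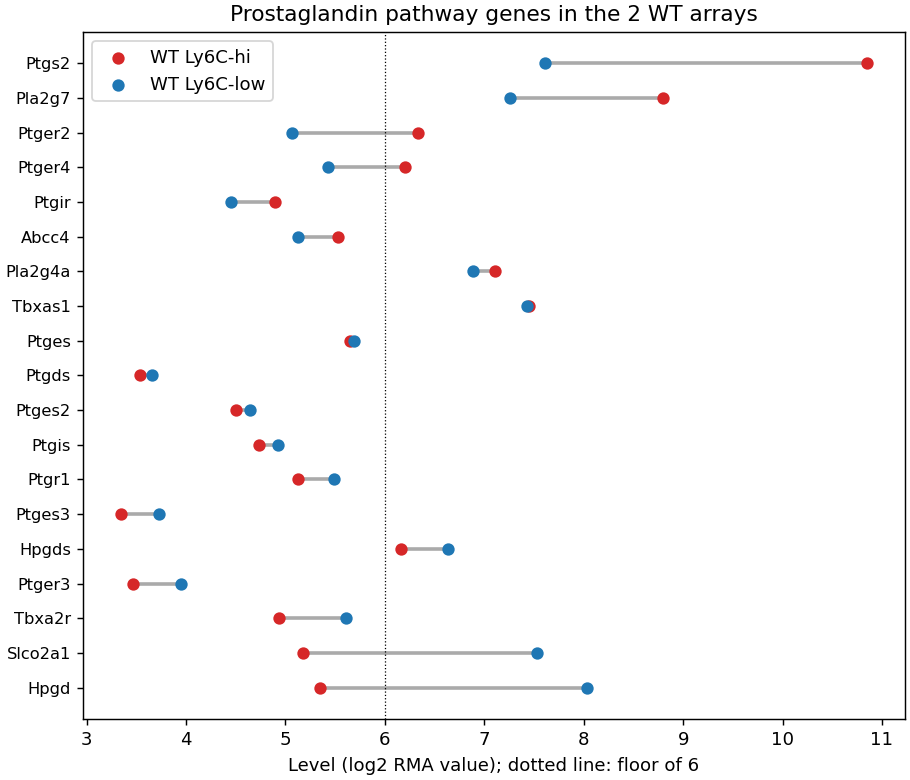
Log2 level of the 19 prostaglandin pathway genes with a probe set in the WT Ly6C-hi array (red) and the WT Ly6C-low array (blue), ordered by difference, 1 array each. The dotted line is the floor of 6. Ptgs2 has the largest difference towards Ly6C-hi and Hpgd towards Ly6C-low, and Ptges reads alike in both.

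Leukotriene genes were higher in Ly6C-hi in 3 of 5. Alox5, the 5-lipoxygenase gene, read 8.48 and 5.98, although its other probe set differed by only 0.63, its activating protein gene Alox5ap 10.80 and 9.49, and Cyp4f18, which degrades leukotriene B4, 8.37 and 6.36. Alox15 was level at 7.60 and 7.59. Pla2g7, the plasma platelet-activating factor hydrolase, read 8.80 and 7.26, and the receptor of that lipid, Ptafr, 10.75 and 8.40. Purine genes followed in 4 of 10, with the ATP and UTP receptor P2ry2 at 7.30 and 4.74, and the ectoenzymes that turn ATP into adenosine, Entpd1 (7.96 and 6.35) and Nt5e (6.22 and 4.78). The adenosine transporter Slc29a1 (5.61 and 7.30) was higher in Ly6C-low.

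Genes for crossing vessel walls and tissue went both ways. Of 15 integrin and selectin system genes, 6 passed 2-fold towards Ly6C-hi (4 centred) and 3 towards Ly6C-low (3 centred). Icam1 read 8.62 and 6.21, Selplg, the selectin ligand, 10.40 and 8.51, and the beta2 integrin gene Itgb2 8.63 and 7.36, while the integrin genes Itga1 (4.72 and 6.10) and Itga9 (5.16 and 6.46) and the adhesion gene Icam2 (4.84 and 6.02) were higher in Ly6C-low. The proteases Mmp8 (9.11 and 6.42) and Mmp25 (6.57 and 5.07) and the urokinase receptor Plaur (10.67 and 8.02) were higher in Ly6C-hi. Mmp12, a macrophage elastase (6.35 and 7.71), and the inhibitor Timp3 (4.65 and 6.98) were higher in Ly6C-low. Coagulation genes split as well, 5 of 18 past 2-fold towards Ly6C-hi and 4 towards Ly6C-low. Tissue factor (F3), the initiator of clotting, read 6.55 and 4.31, and its inhibitor Tfpi 4.30 and 6.83.

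Survival genes were higher in Ly6C-hi in 8 of 12 (6 centred), and the list held both arms. The death-promoting genes Bcl2l11 (7.10 and 5.27), Pmaip1 (7.95 and 6.70) and Fas (6.90 and 5.40) were higher, and so were the protective genes Mcl1 (8.32 and 7.12) and Birc3 (8.61 and 6.93). Checkpoint and costimulatory ligands Cd80 (10.05 and 7.39), Cd274, which encodes PD-L1 (7.76 and 5.51), and Icosl (6.04 and 4.23) were higher in Ly6C-hi. Class II genes were level, with H2-Ab1 at 10.57 and 10.78 and H2-Aa at 9.21 and 9.44. Interferon response genes were close to the whole table, with 3 of 16 higher in Ly6C-hi (1 centred) against the 20.3% of all genes. Irf1 (7.09 and 5.52) led them, and Ifit1 (6.14 and 5.98) and Ifitm3 (9.43 and 9.34) were level.

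Of the myeloid transcription factors, Cebpd (7.05 and 5.58), Runx1 (7.63 and 6.25) and Spi1, which encodes PU.1 (7.03 and 5.91), were higher in Ly6C-hi, while Irf8 (6.70 and 6.51) and Cebpa (6.35 and 6.25) were level. Siglecf, a lectin gene known from eosinophils and some neutrophils, read 7.53 and 4.69, and the killer cell protease gene Gzma 7.50 and 4.97. The other eosinophil, basophil and mast cell markers lay below the floor.

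Resident macrophage and repair genes were higher in Ly6C-low in part. Of 7 Kupffer cell genes used, 4 passed 2-fold towards it and none the other way, and all 7 differences were negative. Clec4f, a lectin restricted to Kupffer cells, read 5.06 and 6.54, Folr2 6.50 and 8.57 and Cd5l 4.08 and 6.22. Timd4, Marco and Cd163 lay below the floor. The iron exporter Slc40a1 was level at 6.92 and 6.99. Repair macrophage genes had a median of -0.54 with 3 of 14 higher in each fraction (2 and 4 centred). Mrc1, Retnla (7.42 and 8.69) and Mmp12 were higher in Ly6C-low, Il1rn, Vegfa and Cd9 (8.91 and 7.75) in Ly6C-hi, and Gpnmb (9.44 and 10.02), Igf1 (7.34 and 7.94) and Trem2 (7.48 and 7.97) read lower in Ly6C-hi by less than 2-fold.

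Genes for engulfing dead cells and for complement leaned to Ly6C-low by small amounts. Of 16, 2 were higher in each fraction as deposited, and 1 and 5 when centred. C1qa read 7.96 and 8.94, C1qb 8.996 and 9.68, and the engulfment receptor Mertk 7.45 and 8.36, while the anaphylatoxin receptor C5ar1 (6.69 and 5.52) was higher in Ly6C-hi. Lipid genes were level or higher in Ly6C-low, in 5 of 21 against 6.57% of all genes. Gpihbp1 had the largest difference, at -3.07, and Fabp4 and Cd36, given above as also expressed by endothelium, were among the 5. The others were Fabp7 (6.23 and 7.70) and the apolipoprotein gene Apoc1 (6.80 and 8.24), which is also on the list of secreted hepatocyte proteins. The part of other cells in this list was not tested. The cholesterol exporters Abca1 (8.15 and 7.77) and Abcg1 (7.06 and 7.02) differed less than 2-fold.

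Endothelial genes of several roles were higher in Ly6C-low. All 11 junction and caveola genes used passed 2-fold towards it, with a median of -2.81. The adhesion gene of endothelial junctions Cdh5 read 5.11 and 8.35, Tjp1 3.19 and 6.19 and Pecam1 5.82 and 8.04. Receptors for vessel growth factors were higher in Ly6C-low in 12 of 16, with the VEGF receptors Kdr (5.60 and 8.88) and Flt4 (4.19 and 6.50), the angiopoietin receptor Tek (3.61 and 6.77) and the coreceptor Eng (4.72 and 7.31). Igf1r (6.61 and 4.80) was the gene on the other side. Scavenger and hyaluronan receptors were higher in Ly6C-low in 9 of 16, including Lyve1 (5.61 and 8.22) and Oit3 (4.63 and 7.08), while the hyaluronan receptor of leukocytes Cd44 (9.39 and 7.38) was higher in Ly6C-hi.

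Endothelial transcription factors followed in 6 of 10. Erg read 5.20 and 7.73, Epas1, which encodes HIF-2 alpha, 5.16 and 7.69, and Gata4, a factor of sinusoidal identity, 5.01 and 6.06. Ets2 (9.60 and 7.74) was higher in Ly6C-hi. Of 28 angiocrine signals, the factors by which endothelium instructs its neighbours, 4 reached the floor and none differed 2-fold. Wnt2 (4.38 and 4.48) and Wnt9b (4.64 and 4.64) read alike below the floor, and Bmp2 (3.37 and 5.20) and Rspo3 (3.50 and 5.30) lay below it as well. Of 7 matrix genes 4 were higher in Ly6C-low, among them the basement membrane gene Nid1 (4.01 and 7.26) and the proteoglycan genes Bgn (6.27 and 9.44) and Dcn (5.12 and 7.58). Stellate cell genes Lrat (3.96 and 6.45) and Rgs5 (4.01 and 6.94) were higher there, and the collagen gene Col1a1 lay below the floor at 5.39 and 5.32.

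Transcripts of hepatocytes were present in both arrays at unequal levels. Albumin (Alb) read 10.15 and 10.94. Of 23 genes for secreted liver proteins, 22 had negative differences and 8 passed 2-fold (15 centred). Of 11 metabolic enzymes, 8 were (10 centred), with Hpd, of tyrosine breakdown, at 5.94 and 7.85, Gnmt at 6.59 and 8.46 and Cyp2e1 at 6.16 and 7.84. Haptoglobin (Hp, 9.74 and 8.33), which neutrophils also carry, was the exception. The other acute phase genes Saa2 (7.39 and 8.33) and Orm1 (6.05 and 6.83) lay with the hepatocyte genes.

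Housekeeping groups were close to level. None of 37 cytosolic ribosomal protein genes differed 2-fold as deposited, with a median of -0.37, and 33 differences were negative. Oxidative phosphorylation genes had a median of -0.25 over 61 genes and proteasome genes -0.28 over 31. Vacuolar ATPase and lysosome genes had a median of 0.42 over 21, with Atp6v0a1 (7.29 and 6.02) the gene past 2-fold. Against the median gene, 0.30 higher in Ly6C-hi, the first 3 groups lay lower and the last a little higher. Of 27 cell cycle genes with a probe set, 20 lay below the floor in both arrays, such as Mki67 (5.45 and 5.78) and Top2a (3.73 and 4.16). Of the 7 used, 2 passed 2-fold towards each fraction, against 20.3% of all genes towards Ly6C-hi and 6.57% towards Ly6C-low. The cyclin genes Ccnd1 and Ccnd2 were those higher in Ly6C-low.

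Genes near each other in gene order sometimes differed together. The RefSeq gene order, passing over genes not used, held 14 runs of at least 4 genes all at least 2-fold higher in 1 fraction. Of these, 11 lay towards Ly6C-hi and 3 towards Ly6C-low. Of all genes used, 20.3% passed 2-fold towards Ly6C-hi and 6.57% towards Ly6C-low. The number of runs that these shares alone would give was not computed. The Schlafen cluster gave Slfn2 at 2.11, Slfn1 at 1.92 and Slfn4 at 4.23 as differences. A run with the interleukin-1 family genes Il1f9 and Il1rn also held Psd4 (1.80) and Pnpla7 (1.87). Tyrobp (1.04), which encodes the adaptor DAP12 of Trem receptors, lay with its relative Hcst (1.31) and the nuclear inhibitor gene Nfkbid (2.24). On the Ly6C-low side were the serpin cluster, from -1.15 for Serpina1a to -1.79 for Serpina1d, and the GTPase genes Gimap4 (-2.84), Gimap6 (-1.84) and Gimap5 (-1.11). Clustered serpins and Gimap genes are close copies, and their probe sets may share signal. The third Ly6C-low run held 5 pheromone receptor genes, Vmn1r127 (-1.79) among them. Of the 34 chemosensory genes that reached the floor, 21 were higher in Ly6C-low, against 6.57% of all genes, and none in Ly6C-hi. Their median was -1.12. Differences were negative for 33, so these reached the floor through the Ly6C-low array, where the background guide was also higher (5.97 against 5.32). Under the KO label the median was 0.90, with 10 higher in Ly6C-hi and none in Ly6C-low. The part of array background was not tested.

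MicroRNA genes differed in both directions. Of 55 used, 8 passed 2-fold towards each fraction, against 20.3% of all genes towards Ly6C-hi and 6.57% towards Ly6C-low. Their median was -0.18, against 0.30 for all genes used. The microRNAs named here were chosen after their values were seen. The array cannot tell a mature microRNA from its precursor or host transcript. The mature sequences are shown because the seed, bases 2 to 8 in capitals, decides which messages a microRNA pairs with. They come from RefSeq (GRCm38.p6).
miR-191-5p: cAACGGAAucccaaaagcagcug
miR-20a-5p: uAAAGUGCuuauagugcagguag
miR-23a-3p: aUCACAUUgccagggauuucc
miR-27a-3p: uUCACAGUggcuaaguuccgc
miR-142a-3p: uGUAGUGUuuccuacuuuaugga
miR-872-5p: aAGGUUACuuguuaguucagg
Mir191 read 6.09 and 3.85, Mir20a 6.81 and 5.37 and Mir23a 7.04 and 5.89, all higher in Ly6C-hi. Mir27a, of the same cluster as Mir23a but with another seed, read 7.18 and 6.31. Mir142, a blood cell microRNA, read 7.10 and 6.35. Mir872 read 4.58 and 6.76 and was higher in Ly6C-low. No 2 of these 6 share a seed.

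The same difference was then taken in the arrays labelled KO, which share no array with the WT pair but were normalised with it. Among the 966 genes higher in WT Ly6C-hi, 676 (70.0%) had the same sign under the KO label, against 2683 of all 4762 genes, 139 were at least 2-fold the same way and 16 the other way. Their median was 1.47 in WT, where they were chosen by this same difference, against 0.32 under the KO label. Of the 313 genes higher in WT Ly6C-low, 270 (86.3%) had the same sign, 241 were at least 2-fold the same way and 17 the other way, with medians of -1.65 and -2.11. Over the 4762 genes the median difference was 0.30 in WT, against -0.26 under the KO label. Centred on these medians, 794 and 265 genes kept their sign. Both sets were chosen by the WT difference and by the floor in the WT arrays, so their medians are not a like comparison. Of all genes, 4171 reached the floor in WT Ly6C-hi against 3066 in KO-labelled Ly6C-hi. For Ly6C-low the numbers were 3594 and 4159.

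Gene groups of the WT difference stood unequally under the KO label. Recruited monocyte genes had a median of 1.23 in WT against 1.54 under the KO label, where 11 of 14 passed 2-fold the same way. The 14 include Gsr and Ly6c2, and Ly6c2 differed by 3.87 and 4.61. Neutrophil genes had medians of 3.31 and 1.75 and sinusoidal endothelial genes -2.92 and -5.01. Inflammatory groups lay closer to 0 under the KO label, with medians of 1.84 and 0.30 for the interleukin-1 list, 1.27 and 0.44 for NF-kB, 1.47 and 0.48 for immediate early genes, 1.34 and 0.26 for hypoxia and 1.33 and -0.36 for survival genes. Values for single genes follow. Ptgs2 differed by 3.24 in WT against 0.78 under the KO label, Acod1 by 4.10 and 1.53, Il23a by 5.04 and 1.02, and Cxcl3 by 3.39 and -0.25. Csf1 differed by 3.54 in WT but -1.05 under the KO label, and Il1a by 1.17 and -2.87. The prostaglandin removal genes kept their side, Slco2a1 at -2.36 and -4.16 and Hpgd at -2.69 and -1.94. With 1 array per group the difference between the WT and the KO-labelled contrast was not tested, and genotype label and array cannot be told apart.

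**Figure D5:**
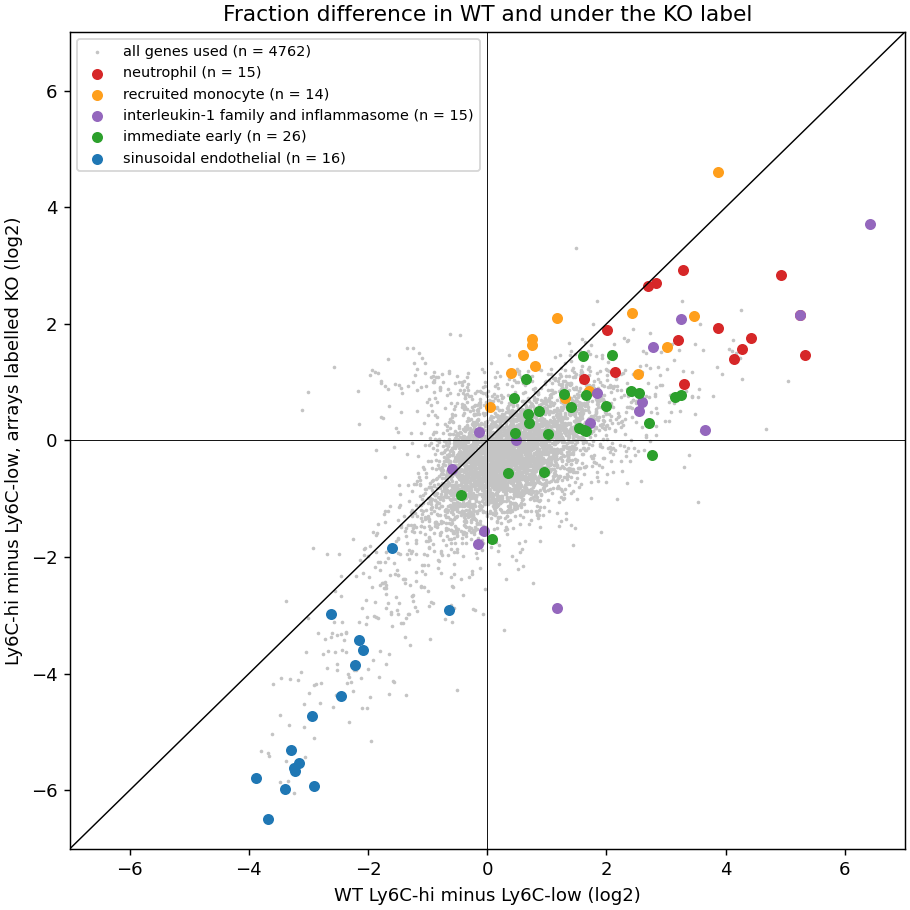
WT Ly6C-hi minus Ly6C-low difference (x axis, log2) against the same difference in the arrays labelled KO (y axis, log2) for the 4762 genes, 1 point per gene, with 5 lists coloured. The solid diagonal marks equal differences. Values are as deposited. Recruited monocyte genes have medians of 1.23 and 1.54. Interleukin-1 and immediate early genes lie mostly below the diagonal, and sinusoidal endothelial genes below it at the lower left.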

How the data were processed

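Macrophages sorted from mouse liver were measured on 4 Mouse Gene 2.0 ST arrays, 1 per group, from 5 ng of total RNA each, per the labels. Per the labels, the authors used Expression Console to make the deposited log2 values, 1 per gene-level probe set, and RMA is named in the submitters' processing notes. RMA is generally known to correct background, quantile normalise arrays and summarise probes, so a shift shared by most genes can be reduced and small values are compressed. The version of that software and the build of its annotation were not given in the sources used here. Precision is limited by having so few arrays.

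Of 41345 probe sets, 23521 had 1 gene symbol, 1814 several and 16010 none in the platform annotation. Only the first were used. RefSeq (GRCm38.p6) gave the current symbol of 23328, and 193 kept that of the annotation. They stood for 22180 genes, 1082 with several probe sets, of which the one with the highest mean over 4 arrays was taken (398 of the genes used had several). Differences were computed with pandas 2.3.3 and numpy 2.4.6 under Python 3.11.15, lowess (fraction 0.4) with statsmodels 0.14.6 and plots with matplotlib 3.10.9, and the counting was tested on simulated data. No test was run. Tried as alternatives were centring, quantile normalisation, lowess, floors of 7 or none, values under 6 set to 6, and other choices of probe set.

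Genes named are the 15 with the largest difference each way, leaving out predicted, RIKEN, microRNA, small RNA, pseudogene and immune receptor segment symbols, up to 6 members per list by size of difference, and defining genes of lists. Other names, among them all given as level or below the floor, were chosen after their values were seen. Members and lists (48 functions, 15 cell types, 4 by symbol) were chosen with earlier results of these data known.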

Additional observations from a re-analysis of the deposited data

Results flagged for a closer look

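Several genes of the function lists, and 3 chemosensory genes taken by the naming rule, were at least 2-fold higher in one fraction in WT and at least 2-fold higher in the other fraction in the arrays labelled KO. The difference between the contrasts was not tested, since each rests on 1 array a side. The values are the WT difference minus the difference under the KO label, on the log2 scale. Csf1 had 4.59, the cytokine gene Il1a 4.04, the regulator gene Cebpd 2.98, the semaphorin gene Sema6b 2.66, the integrin gene Itgax 2.57, the death receptor gene Fas 2.50 and the proton pump gene Atp6v0a1 2.28. In the opposite direction Olfr1170 had -3.84, Vmn1r158 -3.00 and Vmn1r127 -2.80. Cebpd read 7.05 and 5.58 in WT Ly6C-hi and Ly6C-low, and 5.70 and 7.21 under the KO label. Olfr1170 read 5.60 and 8.17 in WT, and 8.45 and 7.18 under the KO label.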

How the results depend on the processing

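No paired analysis was possible because each group has 1 array and the labels carry no replicate numbers. Leaving out a replicate was not possible for the same reason. The counts past 2-fold, 966 towards Ly6C-hi and 313 towards Ly6C-low, depended on the scaling and the floor. Centring gave 494 in Ly6C-low, lowess 545 and 514, a floor of 7 gave 628 and 139, and no floor gave 773 in Ly6C-low. Setting values under 6 to 6 also gave 628 and 139, which by construction are the same calls as with a floor of 7. The median difference of 0.30 became 0.00 by construction on centring, 0.051 with quantile normalisation, 0.40 with a floor of 7, 0.19 with values under 6 set to 6, and reversed to -0.014 with lowess and -0.066 with no floor, which adds genes near background. The cause of the other changes was not tested. Genes higher in Ly6C-hi made up 75.5% of those past 2-fold as deposited, 56.6% centred, 64.1% with quantile normalisation, 51.5% with lowess, 60.6% with no floor and 81.9% with a floor of 7. The mean of probe sets (930 and 303) and the choice by WT mean (967 and 313) changed little. With no floor the medians of the Ly6 family and of the clock genes reversed, to -0.0079 and -0.062. Of 321 results on named genes, 81 crossed 2-fold under at least 1 alternative and none reversed, and of 59 list medians 30 crossed and 2 reversed. Of 52 lists with at least 5 genes used, 36 medians lay above 0 as deposited and 26 when centred.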
